A study of Mus musculus with 20 samples.

Results

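The genes described are 37 mouse genes of DNA damage sensing and repair, measured after knockdown of *Rnaseh2c*. They were chosen by symbol, by a rule that used none of their values, though earlier results of these data were known. They are 9 genes of damage sensing and checkpoint signalling, 8 of homologous recombination, 5 of end joining, 5 of single-strand break repair, 3 of the Fanconi pathway, 2 RecQ helicases, 3 of mismatch and excision repair and 2 subunits of the single-stranded DNA binding protein RPA. All 37 were listed once among the 20188 genes of the tumor table and once among the 50667 Ensembl genes of the cell table, and all 37 passed the filter on low values in both. All samples came from Mvt1, a mammary carcinoma line of FVB background that was transduced with either a scramble control shRNA (scr) or the shRNA sh4 against *Rnaseh2c* and kept under puromycin. Each group was thus 1 transduced line, and only 1 shRNA was sequenced. Cells of 3 scr and 3 sh4 plates gave total RNA. Primary tumors gave mRNA from small pieces of 3 scr and 3 sh4 tumors, grown after injection into the mammary fat pad of virgin FVB females that were obtained at about 6 weeks of age, with a labelled time point of 30 days and 1 tumor of each group from each of 3 experiments. Nothing in the labels states whether the 3 plates of a group were separate cultures, so the spread between plates may be technical.

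RNase H2 removes the RNA strand of RNA-DNA hybrids and single ribonucleotides built into DNA, and *Rnaseh2c* encodes one of its non-catalytic subunits. Cells that lack the enzyme are known to collect DNA breaks, which the kinases ATM and ATR sense. ATM responds mainly to double-strand breaks and ATR to single-stranded DNA coated by RPA, and the kinases CHEK1 and CHEK2 pass the signal to the cell cycle. Broken ends are then joined directly by the Ku, DNA-PK and XRCC4-LIG4 machinery or repaired on a sister copy with BRCA1, BRCA2 and their helpers, while PARP1, XRCC1 and LIG3 mend nicks. The comparison of scr with sh4 asks whether transcripts of the repair machinery differ in level when *Rnaseh2c* is reduced.

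Because many of these genes are transcribed around S phase, the promoters of the 37 were searched for 3 kinds of short motif. RefSeq windows from 250 bases before to 50 bases after the start site (GRCm38.p6) were at hand for 31 of them and for 27025 genes in all. An E2F motif (the letters TTGGCGC, the letters TTCCCGC, the letters TTCGCGC or the letters TTGCCGC, on either strand) was in 17 of 31, or 54.8%, against 10.9% of all genes. The letters GGGCGG were found in 24, or 77.4% (38.2% of all genes), and CCAAT in 18, or 58.1% (41.1% of all genes). Motifs of different kinds were counted separately where they overlapped. A match is a description of the letters, with no test of binding. The 27025 genes were not limited to genes expressed here, whereas all 37 passed the filter on low values. The 3 promoters below belong to the genes with the smallest p in the cells, and capitals mark the motifs found. *Msh6* holds all 3 kinds, *Rpa1* holds GGGCGG and CCAAT, and *Parp1* holds GGGCGG alone.
Msh6, chr17:87974800-87975099, plus strand: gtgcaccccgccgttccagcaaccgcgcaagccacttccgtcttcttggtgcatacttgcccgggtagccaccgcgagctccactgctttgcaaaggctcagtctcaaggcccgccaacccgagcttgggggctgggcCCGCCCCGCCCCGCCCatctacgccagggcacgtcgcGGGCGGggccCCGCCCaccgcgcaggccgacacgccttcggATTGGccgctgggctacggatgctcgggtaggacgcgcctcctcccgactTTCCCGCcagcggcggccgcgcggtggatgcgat
Parp1, chr1:180568641-180568940, plus strand: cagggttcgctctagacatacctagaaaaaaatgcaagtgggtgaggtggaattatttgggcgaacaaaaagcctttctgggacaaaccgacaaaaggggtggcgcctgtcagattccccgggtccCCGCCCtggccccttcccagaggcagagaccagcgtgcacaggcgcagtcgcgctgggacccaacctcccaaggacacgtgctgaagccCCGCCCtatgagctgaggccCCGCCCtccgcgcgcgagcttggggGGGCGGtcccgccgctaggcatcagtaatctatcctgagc
Rpa1, chr11:75348334-75348633, minus strand: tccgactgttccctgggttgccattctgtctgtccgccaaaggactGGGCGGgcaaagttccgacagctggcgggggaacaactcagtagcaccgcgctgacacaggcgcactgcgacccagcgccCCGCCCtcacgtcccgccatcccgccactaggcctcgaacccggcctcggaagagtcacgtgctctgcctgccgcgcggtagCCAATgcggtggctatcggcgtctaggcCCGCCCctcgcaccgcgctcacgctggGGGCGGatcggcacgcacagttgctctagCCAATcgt

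Before the repair genes, the labels were checked on the target of the shRNA. *Rnaseh2c* (mm9, chromosome 19, 5601873 to 5603439) was at 26.9, 52.0 and 25.9 RPKM in scr tumors and 10.2, 22.4 and 19.8 RPKM in sh4 tumors, so that all sh4 tumors lay below all scr tumors (p = 0.1 in a two-sided exact permutation test, which cannot give less with groups of 3). In culture it was at 5.83, 7.06 and 5.34 FPKM in scr cells and 3.19, 5.36 and 4.28 FPKM in sh4 cells, where the groups overlapped (p = 0.2 in the same exact test). The log2 fold changes were -0.98 and -0.48, with adjusted p from limma of 0.995 and 0.236. On the annotation, 29.1% of its exon bases are shared with *Kat5* on the other strand. Of the markers of epithelium, the 3 keratins had mean levels of 319, 187 and 1.61 FPKM in the cells, while *Epcam* and *Cdh1* were under 0.1 FPKM. All 7 markers of leukocytes and T cells were at or near 0 in the cells. In the tumors the summed level of those 7 was 23.5 to 40.1 RPKM in scr and 56.2 to 71.3 RPKM in sh4 tumors, and of 5 fat cell markers 23.6 to 1667 and 34.4 to 227 RPKM. A tumor piece is a mixture, in which fewer cancer cells and less RNA per cancer cell cannot be told apart.

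Levels can be compared roughly between genes within a table, since RPKM and FPKM are scaled to transcript length. This scaling does not account for reads of a gene that the 239874 assembled loci of the cell table may hold. In the cells *Msh6*, which finds base mismatches, stood highest of the 37 at a mean of 41.3 FPKM over the 6 libraries, above 95.5% of the 21106 genes tested. *Rpa1*, the large subunit of RPA, followed at 22.0 FPKM and *Rad50*, the coiled-coil protein of the break-sensing MRN complex, at 9.97 FPKM (9.19, 9.71 and 10.2 in scr, 10.2, 10.1 and 10.4 in sh4). The next, *Brca1* at 9.73 and *Rpa2* at 9.52 FPKM, lay within the spread of *Rad50*. Lowest were *Xrcc4*, the partner of ligase IV in end joining, at 0.207 FPKM (0.297, 0.207 and 0.199 in scr, 0.168, 0.183 and 0.189 in sh4), *Fanca*, a subunit of the Fanconi core complex, at 0.510 FPKM (0.505, 0.471 and 0.536 in scr, 0.587, 0.422 and 0.539 in sh4) and *Prkdc*, the catalytic subunit of DNA-PK, at 0.933 FPKM (0.979, 0.726 and 0.991 in scr, 0.961, 0.957 and 0.987 in sh4). The levels of these 3 did not overlap with those of the 3 highest genes in any library. In all, 29 of the 37 lay above the median of the genes tested (2.32 FPKM).

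The order differed in the tumors, where 16 of the 37 lay above the median of 4.84 RPKM. *Ercc1*, the non-catalytic partner of the XPF nuclease, stood highest at a mean of 26.5 RPKM (21.4, 32.9 and 25.4 in scr, 21.7, 29.4 and 28.2 in sh4). *Rpa1* at 22.7 RPKM (24.4, 24.6 and 22.6 in scr, 22.3, 18.2 and 24.1 in sh4) and *Xrcc6*, which encodes Ku70, at 20.2 RPKM (18.8, 22.6 and 19.4 in scr, 22.1, 18.5 and 19.9 in sh4) overlapped with it. *Bard1*, the partner of BRCA1, was low at 0.572 RPKM, and so was *Lig4*, the ligase of end joining, at 0.508 RPKM (0.563, 0.475 and 0.596 in scr, 0.722, 0.320 and 0.370 in sh4). *Brca2*, a mediator of recombination, was lowest at 0.360 RPKM (0.411, 0.284 and 0.387 in scr, 0.414, 0.253 and 0.413 in sh4). Across the 37 genes the levels of tumors and cells had a Spearman correlation of 0.49, as a description of genes that share libraries and length scaling within each table. *Xrcc4* stood farthest from the rest, rank 5 of 37 in the tumors at 12.9 RPKM (13.4, 13.6 and 12.9 in scr, 12.2, 13.2 and 12.1 in sh4) and rank 37 in the cells. *Brca1* (rank 31 and rank 4) and *Brca2* (rank 37 and rank 17) stood the other way. The tables differ in RNA selection, annotation and scaling as well as in material, and the cell table also lists 239874 assembled loci that may hold reads of a gene, so these sources of the rank differences cannot be told apart.

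**Figure D1:**
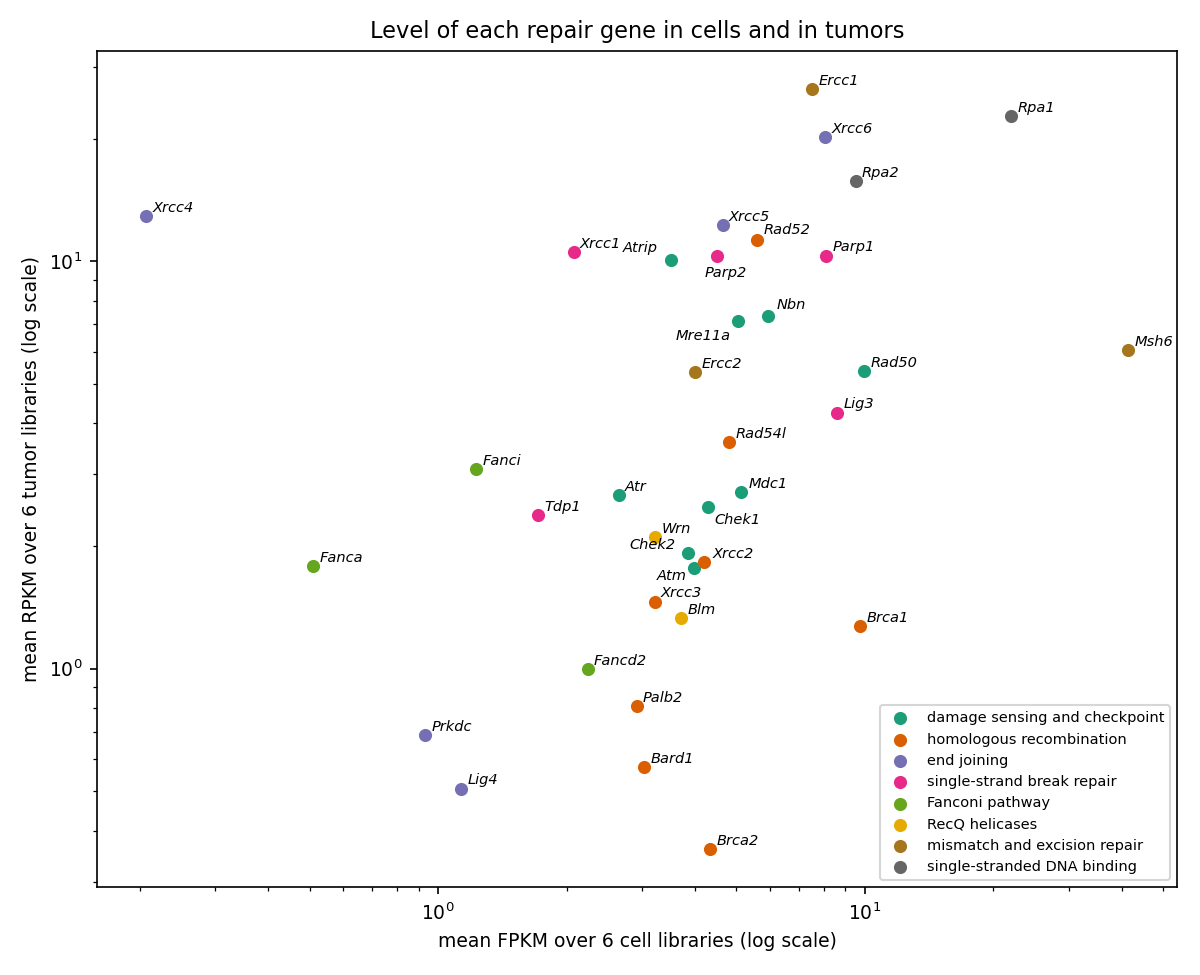
Mean level of each of the 37 genes over the 6 cell libraries (FPKM, x axis) and the 6 tumor libraries (RPKM, y axis), both on log scales, with colors for the role. Most genes lie along a broad diagonal, while *Xrcc4* sits at the far left (0.207 FPKM, 12.9 RPKM) and *Msh6* at the far right (41.3 FPKM, 6.05 RPKM).

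In the cultured cells 30 of the 37 genes had a higher mean log2 value in sh4 than in scr, by small amounts, and no gene passed the test. *Msh6* had the largest log2 fold change of the 37, followed by *Nbn*, *Parp1* and *Rpa2*, and the end-joining gene *Xrcc4* and the chromatin adaptor *Mdc1* lay on the other side. At an adjusted p under 0.05 limma called 0 of 37 higher and 0 lower, where 0.521% (higher) and 0.758% (lower) of 21106 genes were called. The smallest adjusted p was 0.0921. At an unadjusted p under 0.05, 7 of 37 (18.9%) were higher and 0 lower, against 9.55% and 9.33% of all genes tested. All 3 sh4 values lay above all 3 scr values in 11 genes (29.7%, background 13.6%) and below them in 1 (2.7%, background 13.8%). The share with a log2 fold change above 0 was 81.1%, against 49.6% of all genes, and the median log2 fold change was 0.074 against -0.002. The range ran from -0.13 to 0.36, and in 35 of 37 genes the 95% interval of the log2 fold change lay within 0.5 of 0 on both sides.

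Other measures differed between the plates too. All 16 genes of a proliferation list had a positive log2 fold change in the cells as well (median 0.16, 6 or 37.5% higher at an unadjusted p under 0.05, against 9.55% of all genes), and *Rrm2*, the small subunit of ribonucleotide reductase, rose from 47.5, 50.9 and 49.0 FPKM in scr to 64.4, 66.2 and 67.1 FPKM in sh4 cells (adjusted p = 0.0311, lost in 5 of the 6 fits that left out 1 plate). *Mki67*, the Ki-67 gene, was at 80.4, 70.2 and 75.4 FPKM in scr cells and 76.5, 81.0 and 85.4 FPKM in sh4 cells, with overlapping groups. Scr plate 1 also stood apart. It held the lowest value of 21 of the 37 genes, its median deviation was -0.10 on the log2 scale against -0.02 to 0.05 in the other 5 libraries, and its median-ratio size factor was 0.934, against 0.990 to 1.03. Over all genes tested the median deviation of this plate was -0.05, and lowest values were not counted over all genes. Without that plate 25 genes were positive and the median was 0.038, with a background of 46.2% positive. The part of proliferation genes in the differences was not tested.

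**Figure D2:**
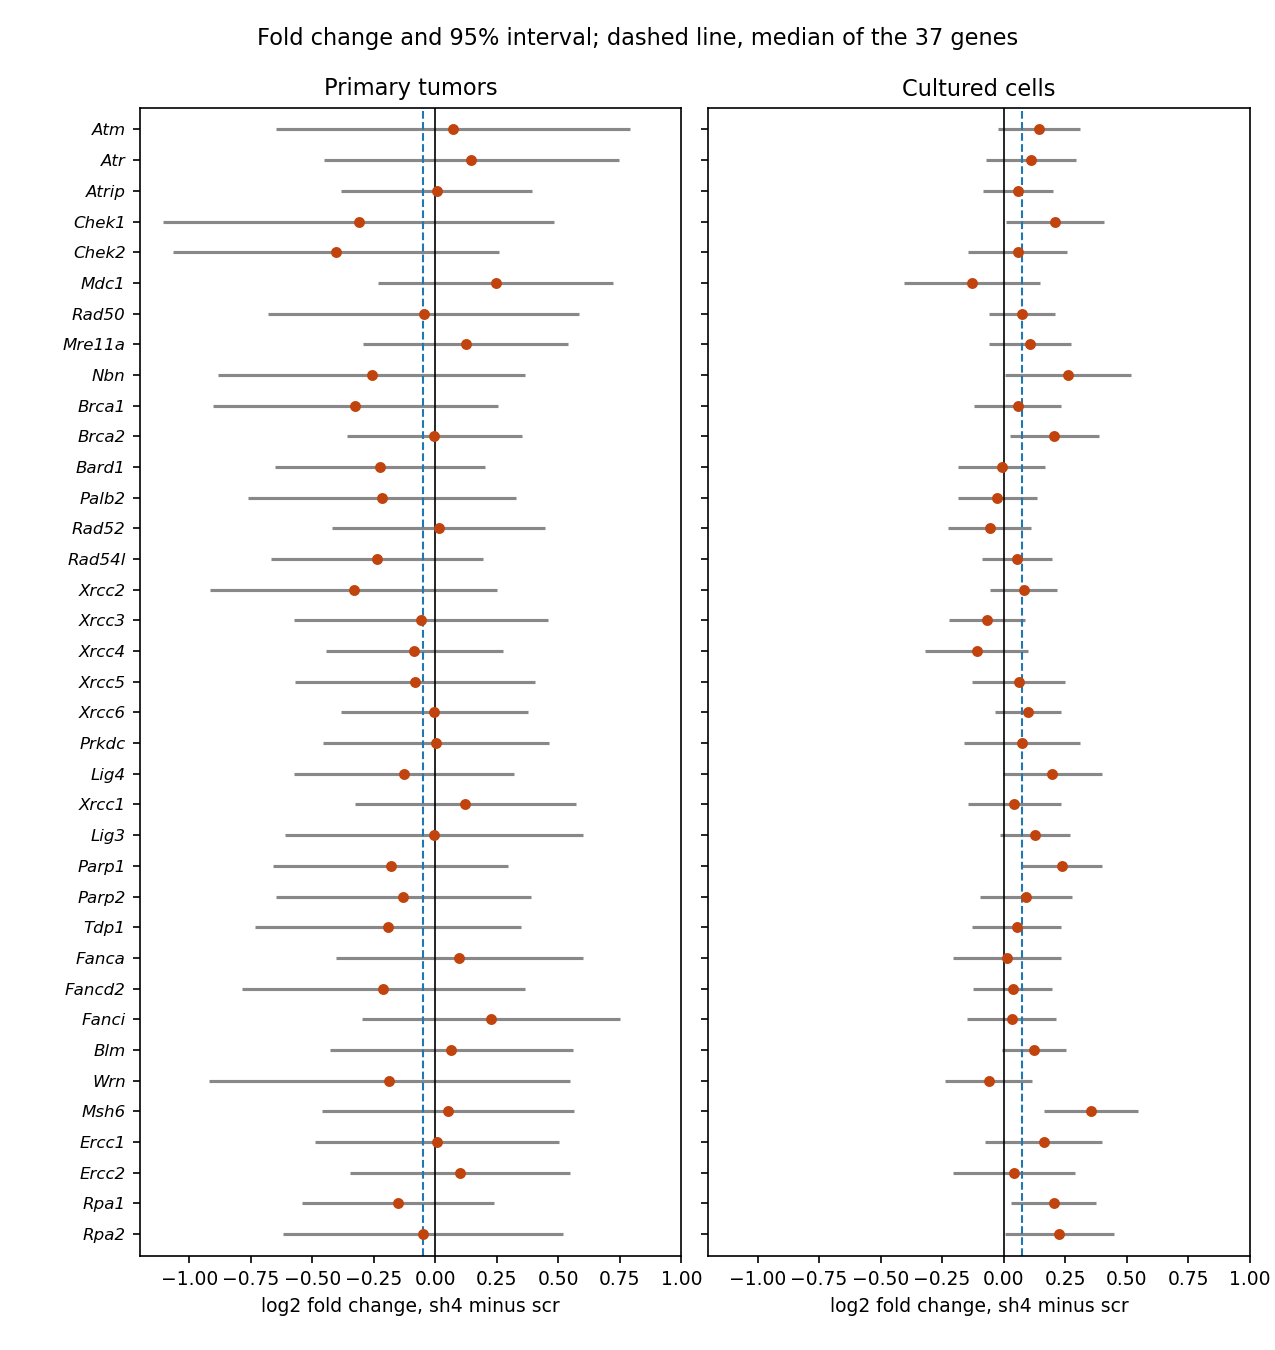
Log2 fold change (sh4 minus scr, dots) with its 95% interval from limma (bars) for each gene, in tumors (left) and cells (right), with the median of the 37 as a dashed line. Intervals were wide in the tumors (median SE 0.22) and narrow in the cells (median SE 0.074), where 30 dots lie to the right of 0.

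Mismatch and excision repair held the largest difference. *Msh6* was at 32.4, 37.8 and 38.6 FPKM in scr cells and 48.1, 46.5 and 44.7 FPKM in sh4 cells. Every sh4 plate was above every scr plate, with means of 36.3 ± 3.36 in scr and 46.4 ± 1.69 in sh4 (SD, n = 3). The log2 fold change was 0.36 ± 0.08 (SE, 95% interval 0.16 to 0.55), and its adjusted p of 0.0921 did not pass. After median-ratio scaling or quantile normalization of the 6 libraries *Msh6* was called, with log2 fold changes of 0.33 and 0.27 and adjusted p of 0.0162 and 0.0132. With an index of short against long transcripts as covariate its log2 fold change was 0.20 (adjusted p = 0.117). With the plate number as a block its adjusted p was 0.304. *Ercc1* and *Ercc2*, a helicase of the repair and transcription factor TFIIH, had overlapping groups and log2 fold changes of 0.16 and 0.04. Of *Ercc2*, 24.6% of exon bases are shared with a noncoding gene and 17.8% with *Klc3*, both on the other strand.

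The 5 chosen genes that mend single-strand breaks all had positive log2 fold changes in the cells. This did not extend to a wider list of other repair genes, described below. Its group of base excision and single-strand break repair had 20 genes tested in the cells, 9 positive and 11 negative, with a median of -0.03. *Parp1*, which senses nicks and marks proteins with ADP-ribose, was at 6.75, 7.71 and 7.78 FPKM in scr cells and 9.00, 8.75 and 8.70 FPKM in sh4 cells. The groups did not overlap, and the sh4 plates differed among themselves less than the scr plates. The log2 fold change was 0.24 ± 0.07 (SE, 95% interval 0.08 to 0.40, adjusted p = 0.142), and the same scalings that called *Msh6* called *Parp1* (0.21 and 0.21, adjusted p of 0.0338 and 0.0363). With the transcript length index as covariate *Parp1* was at 0.12 (adjusted p = 0.303). *Lig3*, the ligase of this pathway, had groups that did not overlap as well (7.83, 8.00 and 8.81 FPKM in scr cells and 9.11, 9.00 and 8.93 FPKM in sh4 cells). On the annotation 25.1% of its exon bases are shared with *Rffl*. *Parp2*, *Tdp1* (which frees topoisomerase I from DNA) and the scaffold *Xrcc1* had log2 fold changes of 0.09, 0.05 and 0.04 and overlapping groups.

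Both RPA subunits among the chosen genes, *Rpa1* and *Rpa2*, were higher in every sh4 plate. Another RPA subunit, *Rpa3*, belongs to the wider list of repair genes and had a negative value in the cells. The log2 fold change of *Rpa3* was -0.13 (95% interval -0.31 to 0.05, adjusted p = 0.402), with overlapping groups. *Rpa1* was at 18.9, 21.0 and 21.5 FPKM in scr cells and 25.0, 23.8 and 22.1 FPKM in sh4 cells, a log2 fold change of 0.20 ± 0.07 (SE, 95% interval 0.03 to 0.38, adjusted p = 0.212). *Rpa2*, the subunit that checkpoint kinases phosphorylate, was at 7.61, 9.16 and 9.48 FPKM in scr cells and 10.9, 10.1 and 9.88 FPKM in sh4 cells, a log2 fold change of 0.23 ± 0.09 (SE, 95% interval 0.00 to 0.45, adjusted p = 0.258). In both genes sh4 plate 1 was highest and scr plate 1 lowest.

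Of the 9 sensing and checkpoint genes 8 had positive values in the cells. *Chek1*, the effector kinase of ATR, was at 3.65, 4.13 and 4.04 FPKM in scr cells and 5.08, 4.60 and 4.23 FPKM in sh4 cells, with groups that did not overlap, a log2 fold change of 0.21 ± 0.08 (SE, 95% interval 0.01 to 0.41) and an adjusted p of 0.250. *Nbn*, the adaptor of the MRN complex, was at 4.86, 5.39 and 5.74 FPKM in scr cells and 7.53, 6.07 and 5.93 FPKM in sh4 cells, where sh4 plate 1 stood well above the other 2 (adjusted p = 0.258). *Atm* was at 3.90, 3.60 and 3.74 FPKM in scr cells and 3.94, 4.13 and 4.53 FPKM in sh4 cells, again without overlap. The gap between its groups (3.90 to 3.94) was smaller than the gaps among the scr plates. *Atr*, *Atrip* (the partner that brings ATR to RPA), *Chek2*, *Rad50* and *Mre11a* (the nuclease of MRN) had log2 fold changes of 0.06 to 0.11 and overlapping groups. *Mdc1*, which spreads the signal along chromatin, was the exception at 6.21, 5.04 and 4.85 FPKM in scr cells and 4.78, 4.37 and 5.43 FPKM in sh4 cells. Its groups overlapped through sh4 plate 3, which lay above scr plates 2 and 3, at a log2 fold change of -0.13. *Atrip* shares 25.8% of its exon bases with *Trex1* on the same strand, so its value may hold reads of that gene.

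Homologous recombination was divided, with 4 positive and 4 negative genes and a median of 0.02. *Brca2* was at 4.32, 3.72 and 3.94 FPKM in scr cells and 4.39, 4.94 and 4.72 FPKM in sh4 cells, and its groups were apart. Its log2 fold change was 0.21 ± 0.07 (SE, 95% interval 0.03 to 0.39, adjusted p = 0.218). *Brca1* (0.06), *Rad54l* (0.06), a motor protein of recombination, and *Xrcc2* (0.08) had small positive log2 fold changes. *Bard1* (-0.01), *Palb2* (-0.02), the bridge between BRCA1 and BRCA2, *Rad52* (-0.06) and *Xrcc3* (-0.07) were slightly negative. The groups of these 7 overlapped, and none of the 8 had a 95% interval beyond 0.39 in size.

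Among the end-joining genes *Lig4* was at 1.01, 1.12 and 0.926 FPKM in scr cells and 1.29, 1.30 and 1.13 FPKM in sh4 cells, apart by group, with a log2 fold change of 0.20 (95% interval -0.00 to 0.40). *Xrcc4* was the only one of the 37 genes with all sh4 values below all scr values in the cells. At its level near 0.2 FPKM the log2(value + 0.5) scale understates a ratio, and the log2 fold change of -0.11 had an adjusted p of 0.532. The Ku genes *Xrcc5* and *Xrcc6* and *Prkdc* were at 0.06, 0.10 and 0.08, with overlap. *Blm*, the helicase mutated in Bloom syndrome, had groups apart (3.64, 3.43 and 3.53 FPKM in scr cells and 3.88, 3.83 and 3.96 FPKM in sh4 cells, log2 fold change 0.12). Its relative *Wrn*, the Werner syndrome helicase, was at -0.06, and the 3 Fanconi genes *Fanca*, *Fancd2* and *Fanci* were at 0.01 to 0.04.

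**Figure D3:**
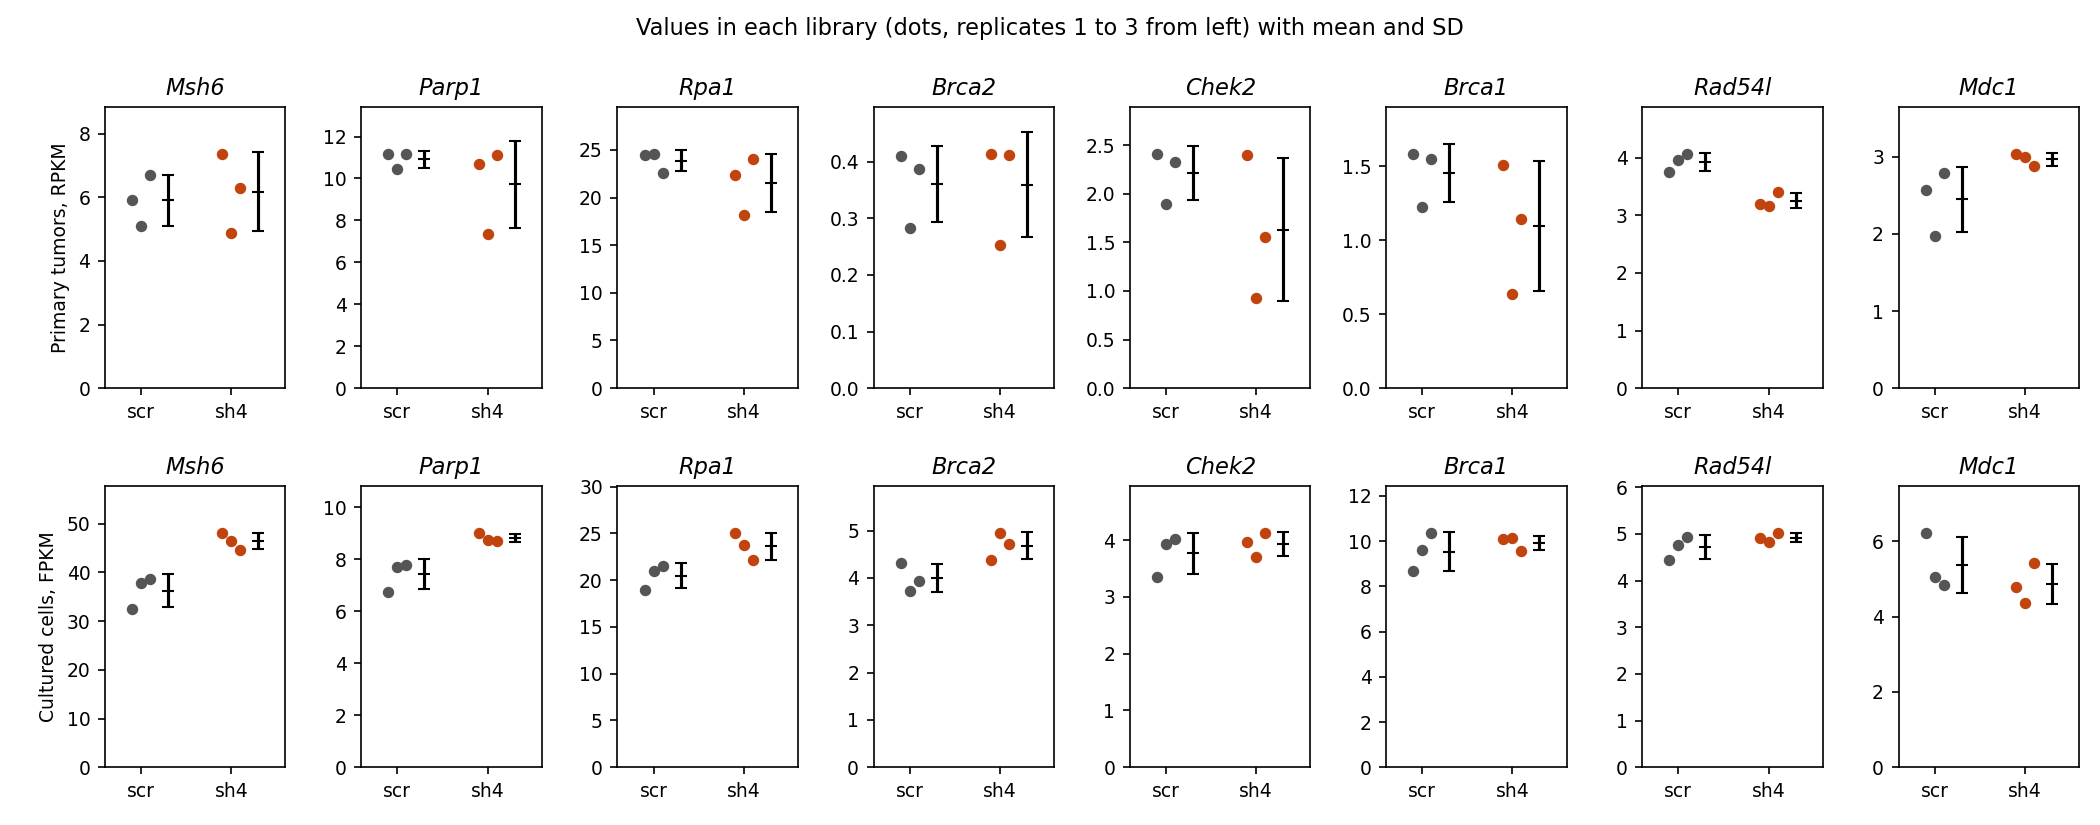
Values of 8 genes in each library, tumors in the upper row (RPKM) and cells in the lower row (FPKM), each axis from 0. Dots are libraries, with replicates 1 to 3 from left to right, and the bar is the mean with its SD (n = 3). In the cells the sh4 dots of *Msh6*, *Parp1*, *Rpa1* and *Brca2* lie above all scr dots, while in the tumors the sh4 dots of *Chek2* and *Brca1* spread from the scr level down to sh4 tumor 2.

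In the primary tumors no gene of the 37 passed the test. Sh4 tumor 2 was lowest for most of them and sh4 tumor 1 was often highest. Limma called 0 of 37 higher and 0 lower at an adjusted p under 0.05, where 0.0% of 13487 genes were called in either direction, and the smallest adjusted p among the 37 was 0.995. At an unadjusted p under 0.05 there were 0 higher and 0 lower, against 2.16% and 2.02% of all genes. A log2 fold change above 0 was found in 14 of 37 genes (37.8%, background 42.6%), with a median of -0.051 against -0.043 over all genes tested. The values ran from -0.40 (*Chek2*) to 0.25 (*Mdc1*). Intervals were wide, with a median SE of 0.22, and in 6 of 37 genes the 95% interval lay within 0.5 of 0, so that differences of the size seen in the cells were not detectable here.

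Sh4 tumor 2 held the lowest value of 24 of the 37 genes and sh4 tumor 1 the highest value of 17. Their median deviations from the 6-tumor means were -0.28 and 0.16 on the log2 scale, against -0.04 to 0.12 in the other 4 tumors. Over all genes tested the median deviations of these 2 tumors were -0.16 and 0.10. The coefficient of variation was larger in sh4 than in scr for 29 of 37 genes (median 24.7% and 12.8%). In the cells it was larger in sh4 for 12 (median 5.61% and 6.59%). These counts, and those of lowest and highest values, were made for the 37 genes alone, with no share over all genes. The proliferation list had a median deviation of -0.53 in sh4 tumor 2, against -0.06 to 0.19 in the other 5 tumors, and its median-ratio size factor of 0.875 was the lowest of the 6 (0.966 to 1.09 in the others). Short transcripts stood high against long ones in the same tumor, with an index of 0.41 (genes under 1000 bases minus genes over 4000 bases, log2 scale), against -0.37 in sh4 tumor 1 and -0.30 to 0.30 in the scr tumors. The 37 genes have long transcripts, with a median of 4248 bases for the longest against 2981 for the genes tested. The part of these measures in the low values of sh4 tumor 2 was not tested. Without sh4 tumor 2 the median of the 37 was 0.02 with 22 positive, while all genes had a median of 0.02 and 54.3% positive. Without sh4 tumor 1 it was -0.16 with 9 positive, while all genes had a median of -0.10 and 38.8% positive.

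**Figure D4:**
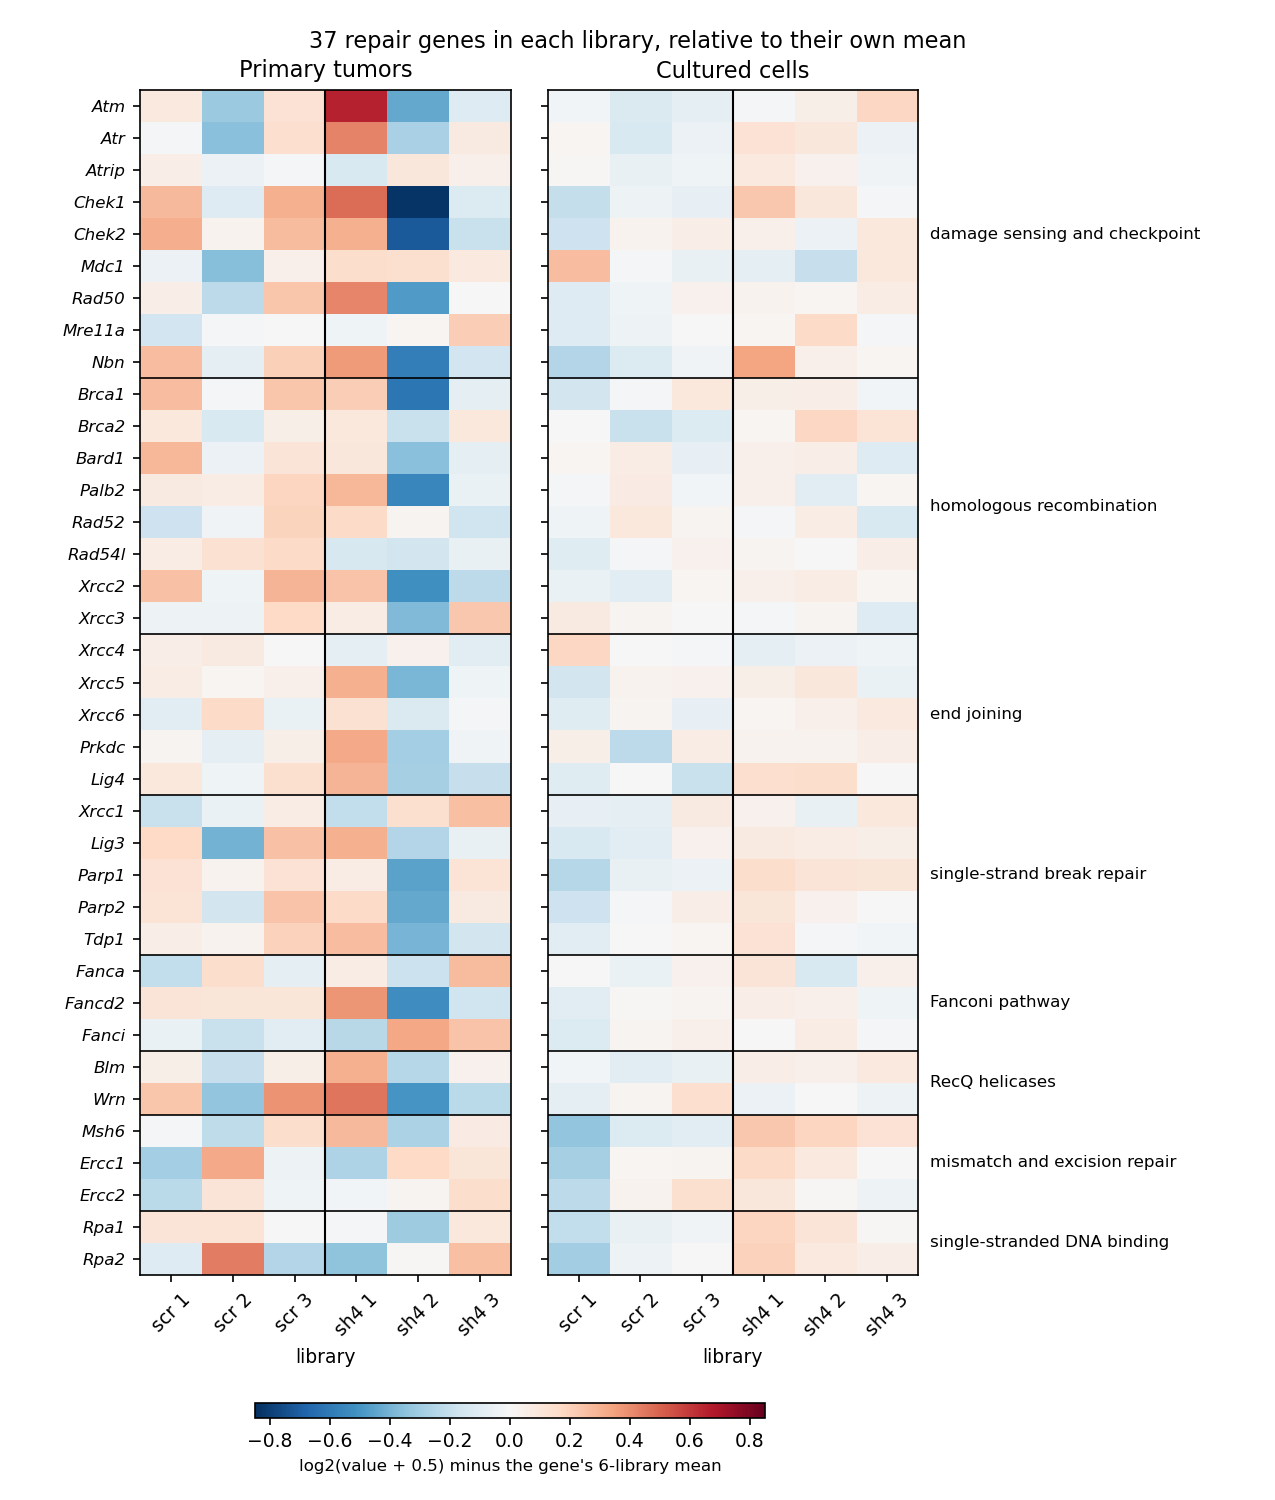
Log2(value + 0.5) of each gene in each library minus its mean over the 6 libraries of that table, from blue (lower) to red (higher), with genes in rows grouped by role. In the tumors the column of sh4 tumor 2 is blue for most rows (24 of 37 lowest there) and that of sh4 tumor 1 red, and in the cells the palest differences are seen, with scr plate 1 bluest (21 of 37 lowest).

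The 3 experiments gave different directions. Within experiment 1 the sh4 tumor was above the scr tumor in 25 of 37 genes, with a median log2 ratio of 0.14 (0.05 over all genes tested). Within experiment 2 this was 8 of 37, with a median of -0.26 (-0.08 over all genes), and within experiment 3 it was 13 of 37, with a median of -0.08 (-0.09 over all genes). *Mdc1* and *Mre11a* were higher in sh4 in all 3 experiments, 2 of 37 or 5.41% (background 11.9%). *Chek2*, *Brca1*, *Bard1*, *Rad54l*, *Xrcc2*, *Xrcc4* and *Parp1* were lower in all 3, 7 of 37 or 18.9% (background 15%).

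**Figure D5:**
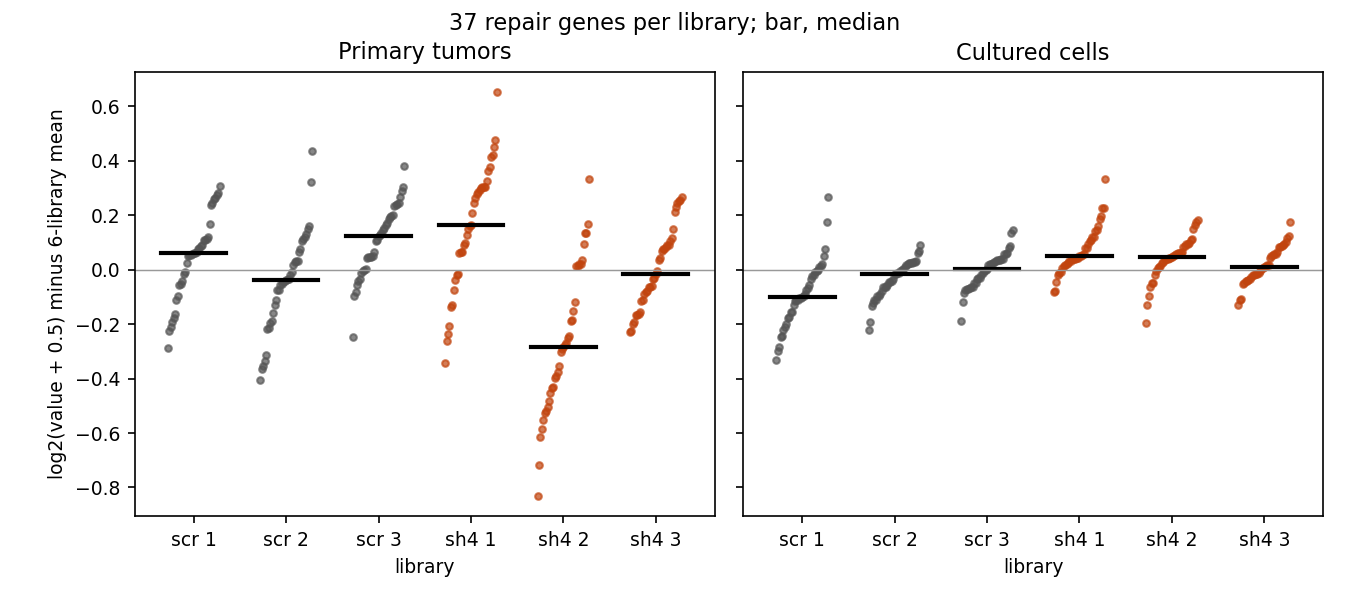
Deviation of each of the 37 genes (dots, sorted within a library) from its 6-library mean, log2 scale, with the median as a bar, for scr (gray) and sh4 (orange). The bar of sh4 tumor 2 lies at -0.28 and that of sh4 tumor 1 at 0.16, whereas the cell libraries lie between -0.10 (scr plate 1) and 0.05.

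By role among the 37, homologous recombination was lowest in the tumors, with 7 of 8 genes negative and a median of -0.22. The proliferation list was lower still, with 13 of 16 negative and a median of -0.30. Of further repair genes, 12 of homologous recombination had a median of -0.09 and 12 of the Fanconi pathway of -0.16, with 10 negative in each. The median of all genes tested was -0.04. *Rad54l* was at 3.76, 3.96 and 4.06 RPKM in scr tumors and 3.20, 3.16 and 3.40 RPKM in sh4 tumors. This was the only one of the 37 genes with all sh4 tumors below all scr tumors (2.7%, background 4.98%), and its log2 fold change was -0.24 ± 0.19 (SE, 95% interval -0.67 to 0.19). It shares 15.4% of its exon bases with *Lrrc41* on the other strand. *Brca1* was at 1.58, 1.23 and 1.55 RPKM in scr tumors and 1.51, 0.636 and 1.14 RPKM in sh4 tumors, where sh4 tumor 1 lay within the scr range and sh4 tumor 2 at the bottom. Its log2 fold change was -0.33 ± 0.25 (SE, 95% interval -0.91 to 0.26), and without sh4 tumor 2 it was -0.10. *Bard1*, which forms a ubiquitin ligase with BRCA1, was at 0.792, 0.525 and 0.646 RPKM in scr tumors and 0.636, 0.331 and 0.506 RPKM in sh4 tumors (log2 fold change -0.23, interval -0.65 to 0.20). *Xrcc2* was at 2.20, 1.72 and 2.28 RPKM in scr tumors and 2.20, 1.09 and 1.45 RPKM in sh4 tumors, again with sh4 tumor 1 among the scr tumors (log2 fold change -0.33, interval -0.92 to 0.25). *Palb2* had a log2 fold change of -0.22, *Xrcc3* of -0.06, *Brca2* of -0.00 and *Rad52* of 0.01, each with overlap.

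The sensing and checkpoint genes held both ends of the range, with 5 positive and 4 negative. *Chek2*, the effector kinase of ATM, was at 2.41, 1.90 and 2.33 RPKM in scr tumors and 2.40, 0.929 and 1.56 RPKM in sh4 tumors. Sh4 tumors 2 and 3 lay below the scr range and sh4 tumor 1 lay within it. The log2 fold change was -0.40 ± 0.29 (SE, 95% interval -1.07 to 0.26), and it was -0.15 without sh4 tumor 2. *Mdc1* was at 2.58, 1.98 and 2.79 RPKM in scr tumors and 3.04, 3.00 and 2.88 RPKM in sh4 tumors, the only one of the 37 with all sh4 tumors above all scr tumors (2.7%, background 4.19%), at a log2 fold change of 0.25 ± 0.21 (SE, 95% interval -0.23 to 0.72). Highest to lowest tumor, *Chek1* varied most of all 37 genes, by 3.14 times, from 1.12 RPKM in sh4 tumor 2 to 3.50 RPKM in sh4 tumor 1. *Atm* (0.07), *Atr* (0.15), *Atrip* (0.00), *Mre11a* (0.12), *Rad50* (-0.05) and *Nbn* (-0.26) had overlapping groups.

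The remaining roles had medians of -0.13 to 0.10 in the tumors, with -0.04 over all genes tested. End joining had a median of -0.08, with *Xrcc4* the steadiest of all 37 genes (highest to lowest tumor 1.13 times, log2 fold change -0.09). Single-strand break repair had a median of -0.13, with *Parp1* at 11.1, 10.5 and 11.2 RPKM in scr tumors and 10.7, 7.33 and 11.1 RPKM in sh4 tumors, the scr and sh4 tumors overlapping apart from the low sh4 tumor 2. *Msh6* was at 5.92, 5.09 and 6.71 RPKM in scr tumors and 7.37, 4.88 and 6.30 RPKM in sh4 tumors, with the highest and the lowest value both in sh4 tumors, and its log2 fold change was 0.05 (interval -0.46 to 0.56). *Rpa1* and *Rpa2* had log2 fold changes of -0.15 and -0.05, *Blm* and *Wrn* of 0.07 and -0.19, and *Fanca*, *Fancd2* and *Fanci* of 0.10, -0.21 and 0.23. Of *Fanci*, 14.8% of exon bases are shared with the mitochondrial polymerase gene *Polg*.

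Tumors and cells share no libraries, and their values for the 37 genes can be set side by side. The sign of the log2 fold change was the same in 17 of 37 genes (45.9%), where it was the same in 53.7% of the 10835 genes tested in both tables. Positive in both were 12 genes, negative in both 5, negative in tumors and positive in cells 18, and the reverse 2. *Mdc1* was one of the 2 (0.25 in tumors, -0.13 in cells). None of the 37 had groups apart in opposite directions in the 2 tables.

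A wider list of 111 other repair genes gave the setting. In the cells 107 of them were tested, with 54 positive and 53 negative values, and the median log2 fold change was 0.0005, beside 0.074 for the 37. Limma called 0 higher and 1 lower. That gene was *Mlh3*, which in mouse is needed for meiotic crossing over, at 5.64, 5.94 and 5.81 FPKM in scr cells and 4.07, 4.37 and 4.26 FPKM in sh4 cells. It fell by 0.41 on the log2 scale (SE 0.05, adjusted p = 0.0362), with the groups far apart, but the call was lost in 5 of the 6 fits that left out 1 plate (adjusted p of 0.0439, without scr plate 1, to 0.159). A further 3 genes were called after both median-ratio scaling and quantile normalization, and were named after their values were seen. Over all genes tested these scalings called 586 of 21114 and 545 of 21106 higher, so 3 calls in this list do not set it apart. *Ercc5*, the nuclease XPG, was at 5.32, 5.35 and 5.31 FPKM in scr cells and 6.48, 6.76 and 6.78 FPKM in sh4 cells (adjusted p = 0.0505 without scaling). *Polq*, the polymerase of microhomology end joining, was at 2.30, 2.44 and 2.49 FPKM in scr cells and 3.33, 2.97 and 3.15 FPKM in sh4 cells (adjusted p = 0.0795). *H2afx*, the histone marked at breaks, was at 93.0, 113 and 119 FPKM in scr cells and 139, 137 and 139.9 FPKM in sh4 cells (adjusted p = 0.131). All sh4 plates lay above all scr plates in these 3. At an unadjusted p under 0.05 the list had 13 higher genes (12.1%, background 9.55%) and 5 lower genes (background 9.33%). In the tumors 106 were tested, 41 positive and 65 negative with a median of -0.05, limma called 0, and 1 was lower at an unadjusted p under 0.05 (background 2.02%). It was *Fancf*, an adaptor of the Fanconi core complex, at 2.36, 2.34 and 2.46 RPKM in scr tumors and 1.70, 1.22 and 1.55 RPKM in sh4 tumors.

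Genes around the target and targets of p53, which the damage kinases activate, were read as well. *Rnaseh2a*, the catalytic subunit, was at 4.50, 5.31 and 5.21 FPKM in scr cells and 5.60, 5.43 and 4.96 FPKM in sh4 cells and *Rnaseh2b*, the other scaffold subunit, at 0.534, 0.418 and 0.481 FPKM in scr cells and 0.610, 0.548 and 0.610 FPKM in sh4 cells, the latter with all sh4 plates higher. In the tumors both overlapped, at 14.6, 25.4 and 18.1 RPKM in scr tumors and 15.2, 27.8 and 27.1 RPKM in sh4 tumors for *Rnaseh2a* and 13.7, 10.5 and 11.99 RPKM in scr tumors and 11.7, 17.4 and 13.0 RPKM in sh4 tumors for *Rnaseh2b*. *Rnaseh1*, the other RNase H of the nucleus and mitochondria, had log2 fold changes of 0.03 in cells and -0.02 in tumors, and *Top1*, the topoisomerase that cuts DNA at ribonucleotides, of 0.00 and -0.36. Of 15 targets of p53 in the cells, 12 were positive, and 9 or 60.0% were higher and 1 lower at an unadjusted p under 0.05 (background 9.55% and 9.33%). All sh4 plates lay above all scr plates in 9 as well (background 13.6%). Limma called 1 higher and 1 lower, where 0.521% and 0.758% of all genes were called. *Eda2r*, a receptor of the TNF family, rose from 8.47, 9.56 and 9.76 to 12.9, 12.7 and 12.4 FPKM (adjusted p = 0.0454), and the death receptor *Fas* fell from 2.07, 2.02 and 2.1 to 1.24, 1.21 and 1.42 FPKM (adjusted p = 0.0410). The call of *Eda2r* was lost in 5 and that of *Fas* in 6 of the 6 fits that left out 1 plate. *Cdkn1a*, which encodes the cell cycle inhibitor p21, was at 8.55, 8.72 and 7.53 FPKM in scr cells and 11.1, 10.4 and 10.9 FPKM in sh4 cells, a log2 fold change of 0.37 ± 0.07 (SE) with an adjusted p of 0.0673, which passed at 0.0481 when genes with a mean under 1 were left out. It passed under no other alternative, with an adjusted p of 0.0944 with no filter, 0.113 with the length covariate and 0.274 with the replicate block. In the tumors 12 of the 15 were negative, 0 were called and *Cdkn1a* was at 27.7, 48.2 and 35.1 RPKM in scr tumors and 34.4, 21.5 and 33.2 RPKM in sh4 tumors, with overlap.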

How the data were processed

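RNA was compared in 2 tables, each with 3 scr and 3 sh4 libraries. For the tumors the authors trimmed mRNA reads with Trimmomatic, aligned them with Tophat to mm9 and Ensembl v70 transcripts, and deposited RPKM. For the cells the authors deposited FPKM from total RNA, in a table with 50667 Ensembl genes beside 239874 assembled loci. For these libraries the methods describe Tophat with long noncoding RNAs of GENCODE M15 followed by DESeq2, and the submitters' processing notes list STAR 2.7 and TopHat2 2.1.0 without their roles, so the program behind the FPKM is not given in the sources used here. Read numbers are not known, so replicate spread is the measure of precision. The 8 exome libraries were not analysed here.

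Assembled loci were left out, 0 sample columns were unused, and 12 housekeeping genes had 0 genes at 0 in any library of either table. Genes whose 6 libraries averaged 0.1 or more were tested on the scale of log2(value + 0.5). Sh4 was compared with scr within each table by limma (version 3.58.1, R 4.3.3) using a variance trend without a block, and p-values were adjusted by Benjamini-Hochberg over all genes tested. A gene was called at an adjusted p under 0.05. Fold changes on this scale understate those of low genes. The procedure was tested on simulated data. Tumor numbers pair the groups through the experiment given in the labels. The correlations of same-numbered tumors, after removal of group means, were 0.14, 0.33 and -0.12.

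The 37 genes, the wider list and the markers were chosen with earlier results of these data known. By rule, values in every library are given for the 6 of the 37 genes with the smallest p in each table, the 3 highest and 3 lowest by level, called genes of the wider list, the RNase H genes, *Mki67* and *Cdkn1a*. Values of other genes were added after they were seen. Exon overlaps come from GENCODE vM1 on mm9, without regard to strand, since strand use in counting is not given in the sources used here. The alternatives tried were pseudocounts of 0.1 and 1, median-ratio scaling, quantile normalization, no filter, a filter at a mean of 1, limma with no variance trend, the replicate block, a transcript length index as covariate, and leaving out each library.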

Additional observations from a re-analysis of the deposited data

How the results depend on the processing

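In the cells, 2 of the 37 genes (*Msh6* and *Parp1*) were called higher after median-ratio scaling and the same 2 after quantile normalization, against 0 without scaling. Over all genes tested (21114 and 21106) these scalings called 586 and 545 higher and 653 and 678 lower, against 110 and 160 without scaling. Of the wider list, 3 genes were called higher under each of the 2 scalings and 1 (*Ercc5*, adjusted p = 0.0327) with a mean of at least 1, against 0. The 1 lower gene of that list, *Mlh3*, was lost (0 called) with no filter, the replicate block and the length covariate. Leaving out 1 plate gave 0 to 1 lower genes of the wider list. *Rnaseh2a* in the cells turned from 0.084 to -0.081 with the length covariate. The same covariate lowered *Msh6* to 0.20, *Parp1* to 0.12, *Rpa1* to 0.06, *Chek1* to 0.06 and *Rpa2* to 0.04 in the cells, and raised *Brca2* to 0.31. Over all genes in the cells limma called 174 higher and 234 lower with a mean of at least 1, 53 and 118 with no variance trend, 32 and 45 with no filter, and 20 and 63 with the length covariate, and leaving out 1 plate gave 1 to 83 and 1 to 165. *Eda2r* lost its call with no filter (adjusted p = 0.0689), no variance trend (0.0652) and the length covariate (0.0745), *Fas* with no filter (0.0705) and the length covariate (0.0980), *Rrm2* with the length covariate (0.0581), and all 3 with the replicate block (0.252 to 0.259). *Cdkn1a* was called with a mean of at least 1 (0.0481) and under no other alternative. The cause of these differences was not tested. In the tumors 0 genes were called under every alternative run. Left out in turn, single libraries moved the median of the 37 between -0.16 (without sh4 tumor 1) and 0.02 (without sh4 tumor 2) in the tumors and between 0.04 (without scr plate 1) and 0.11 (without scr plate 3) in the cells. Median-ratio scaling turned it to 0.02 in the tumors, with the median of all genes at 0.02. With the length covariate the median of the 37 in the cells was 0.04, with 23 of 37 positive. All genes in that fit had a median of -0.04, with 42.1% positive. With the experiment number as a replicate block, limma called 0 of the 37 in the tumors (smallest adjusted p = 0.752). For the cells no source says what a plate number pairs, and the correlations of same-numbered plates were -0.06, -0.08 and -0.07. With the plate number as a replicate block, 0 genes were called in all and 0 of the 37 (smallest adjusted p = 0.304). Read numbers are unknown, so low genes such as *Brca2* in the tumors and *Xrcc4* in the cells have a precision that only the replicates show.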
